A study of Mus musculus with 14 samples.

Results

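Genes that mark reactive astrocytes, namely Gfap, Vim, Lcn2, Serpina3n, Cd44, S1pr3, Timp1, Steap4, Cp and Aqp4, were followed in bulk RNA-seq of the mouse hippocampus. The 10 genes were taken by symbol from the deposited gene counts through their GENCODE M21 identifiers, out of 55536 Ensembl genes. That rule uses no measured value, but the list itself was chosen with earlier results of these data known. All 10 were among the 38070 genes with at least 10 counts in total that were tested. The libraries came from 14 mice aged 10 months, 1 library per mouse. MRL mice (B6.MRL-Faslpr, n = 4) carry the lpr mutation of the death receptor Fas and develop lupus with neuropsychiatric signs. MRL-IRAK4-KD mice (n = 4) carry the same mutation together with a kinase-dead form of IRAK4, the kinase that relays signals from toll-like and interleukin-1 receptors. C57BL/6 mice (n = 3, C57BL6/J in the labels) and mice with the kinase-dead IRAK4 alone (IRAK4-KD, n = 3) served as the controls without lupus. Every group was on the C57BL/6 background, the kinase-dead allele was present in all tissues, and the mice were perfused with PBS before the hippocampus was taken.

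Astrocytes supply neurons with energy and clear glutamate and potassium, and after injury, infection or inflammation they turn reactive. The best known sign is more of the intermediate filaments GFAP and vimentin. Beside it comes a set of secreted and surface proteins that follow signals such as interleukin-1, TNF, complement C1q and the interleukin-6 family, the last through the receptor subunits gp130 and OSMR and the transcription factor STAT3. IRAK4 lies on the interleukin-1 and toll-like receptor arm of these signals, and setting MRL beside MRL-IRAK4-KD mice asks whether the kinase bears on the astrocyte state in lupus.

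The libraries held 279941472 to 572398312 counts. The 18 homeostatic astrocyte genes listed, none at 0 in any library, summed to 7761 to 10145 CPM (counts scaled to a common library size by TMM), and 8 hippocampal neuron markers to 5318 to 7194 CPM, the lowest sum being that of MRL-IRAK4-KD replicate 4. MRL-IRAK4-KD replicate 4 stood apart on the first principal component (40.5% of the variance, score 152 against -28.4 to 8.82 in the others) and held 7928 CPM of 10 choroid plexus epithelium markers, against 74.6 to 1905 in the other 13 libraries, and 88.3 CPM of 8 ependyma markers against 21.7 to 44.0. The library labelled IRAK4-KD replicate 3 went against its label, because the full transcript Fas-201 was at 0 counts there as in all 8 libraries of the lpr mice, whereas it had 345 to 584 counts in the other 5 control libraries. It also held 484 CPM of 8 striatum markers, against 87.1 to 181 elsewhere. Irak4 had 1.54 to 2.72 CPM with no separation of the genotypes, so its level checked no label. In such bulk tissue, fewer astrocytes and less RNA per astrocyte cannot be told apart.

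Across the 14 libraries the filament gene Gfap was by far the most abundant of the 10 per unit of transcript length, at 135 ± 30.5 CPM per kb (SD, n = 14), and it led the next gene in 14 of 14 libraries. Aqp4, the water channel of astrocyte end-feet, followed at 27.5 ± 4.85 CPM per kb and exceeded the next gene in 12 of 14 libraries. Serpina3n, a secreted serine protease inhibitor, stood at 19.5 ± 5.67 and Vim at 17.8 ± 3.23 CPM per kb, and these neighbours could not be ordered within their spread, Serpina3n being higher in 10 of 14 libraries. The copper ferroxidase Cp came next at 4.13 ± 1.51 CPM per kb. Lcn2 (1.88 ± 4.20), S1pr3 (1.61 ± 0.153) and Cd44 (1.25 ± 0.443) followed, and Lcn2 exceeded S1pr3 in 3 of 14 libraries only, so its mean rested on few mice. Timp1 (0.608 ± 0.427) and Steap4 (0.101 ± 0.0432) were lowest, on 67 to 518 and 54 to 307 counts per library.

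**Figure D1:**
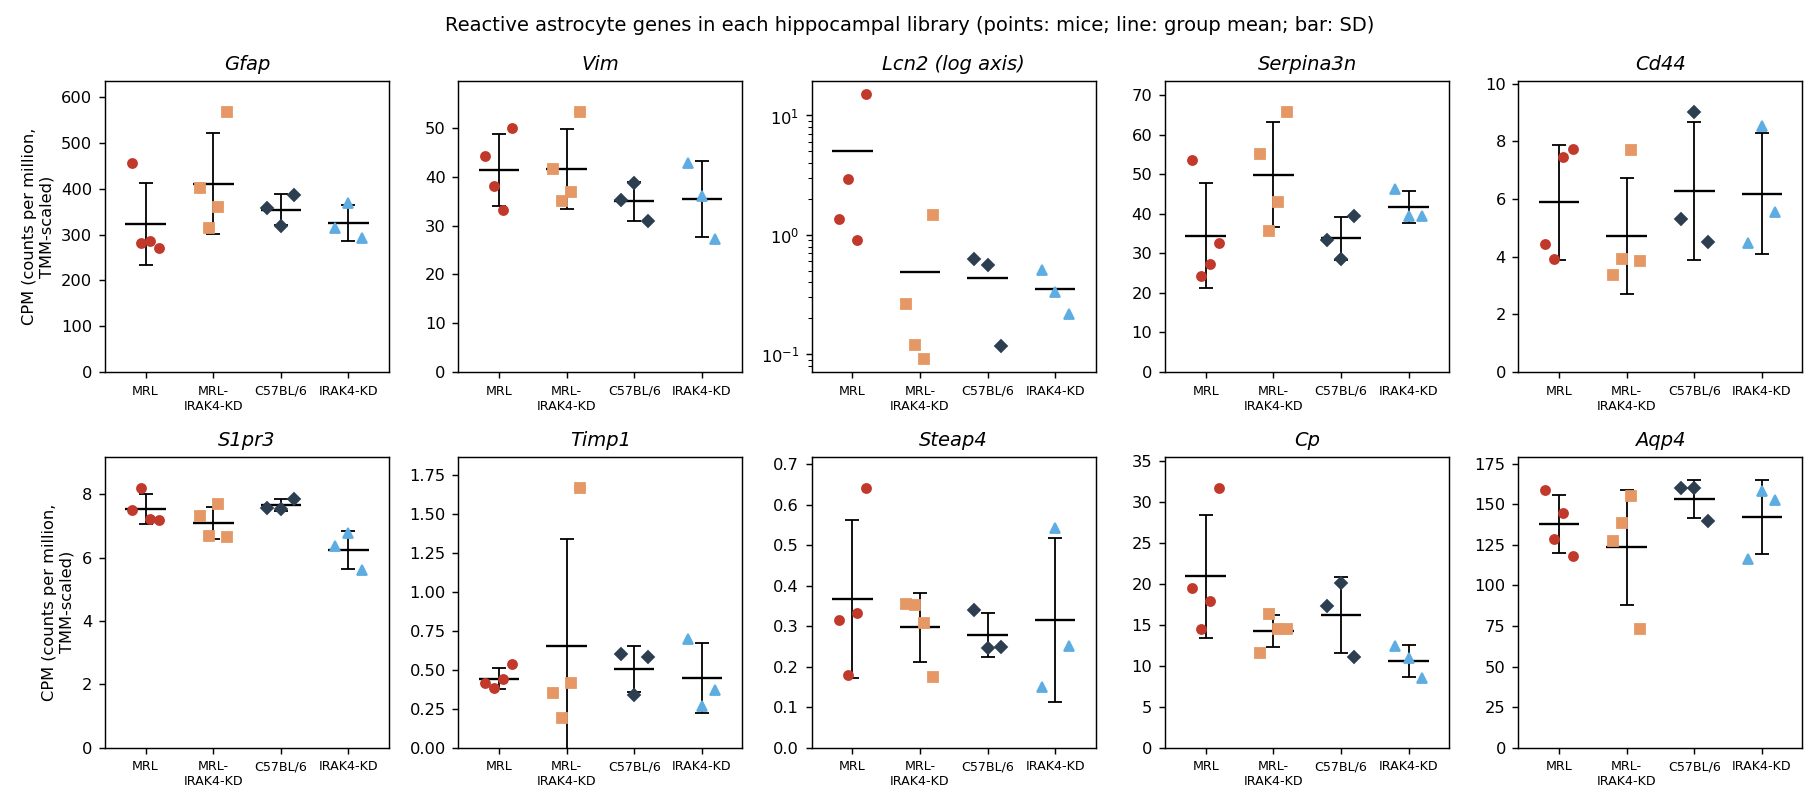
CPM (TMM-scaled counts) of the 10 genes in each library, grouped by genotype. Each point is 1 mouse, the horizontal line is the group mean and the bar the SD, and the Lcn2 axis is logarithmic, with no SD drawn. Lcn2 reached 15.1 CPM in 1 MRL mouse, and the 3 IRAK4-KD mice had less S1pr3 (5.61 to 6.78 CPM) than the 3 C57BL/6 mice (7.54 to 7.87 CPM). The 5.61 CPM belonged to the library labelled IRAK4-KD replicate 3, which went against its label.

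The intermediate filament genes did not separate MRL from MRL-IRAK4-KD mice. Gfap (chr11:102887336-102900912, minus strand, mm10) had 457, 281, 286 and 271 CPM in the 4 MRL mice, 402, 315, 361 and 568 in the 4 MRL-IRAK4-KD mice, 359, 319 and 386 in the C57BL/6 mice and 315, 370 and 294 in the IRAK4-KD mice. Of the MRL mice, 3 had the lowest values of the series and the other the second highest, so that all groups overlapped. Gfap in MRL against MRL-IRAK4-KD gave a log2 fold change of -0.35 ± 0.19 (SE), with a 95% interval from -0.76 to 0.07 and an adjusted p of 0.460 in edgeR. Without MRL-IRAK4-KD replicate 4, which held the highest Gfap value, it was -0.15 ± 0.16, and without MRL replicate 1, the highest of the MRL mice, -0.57 ± 0.17 (unadjusted p of 0.00596, adjusted p of 0.268 in edgeR). The choroid plexus and ependyma markers of that library stood beside this value, and their part in it was not tested. Against C57BL/6, Gfap gave -0.13 ± 0.21 in MRL mice, 0.22 ± 0.21 in MRL-IRAK4-KD mice and -0.12 ± 0.22 in IRAK4-KD mice, with adjusted p of 1, 0.716 and 1 in edgeR.

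Vim (chr2:13573927-13582826, plus strand), the second filament gene, was even closer. The MRL mice had 44.3, 38.1, 33.3 and 50.1 CPM and the MRL-IRAK4-KD mice 41.7, 35.0, 36.9 and 53.3, against 31.0 to 38.8 in C57BL/6 and 27.3 to 42.9 in IRAK4-KD mice. The ranges lay over each other, and the log2 fold change of Vim between MRL and MRL-IRAK4-KD was -0.01 ± 0.17 (95% interval -0.37 to 0.36, adjusted p of 0.995 in edgeR). A difference of Vim within these bounds could not be detected with 4 mice per group.

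Lcn2 (chr2:32384633-32388252, minus strand) encodes lipocalin-2, a secreted siderophore-binding protein of the acute phase that astrocytes, endothelium and neutrophils can make, and it showed the widest range of the 10 genes. The 4 MRL mice had 1.37, 2.94, 0.906 and 15.1 CPM and the 4 MRL-IRAK4-KD mice 0.264, 0.121, 0.0919 and 1.48. The C57BL/6 mice had 0.633, 0.560 and 0.118 CPM and the IRAK4-KD mice 0.505, 0.330 and 0.216. Every MRL mouse lay above every C57BL/6 and IRAK4-KD mouse, and 3 of 4 MRL-IRAK4-KD mice lay below all MRL mice, the exception being replicate 4, which overlapped 2 of them. The log2 fold change of MRL over MRL-IRAK4-KD was 3.38 ± 1.04 (SE), or 10.4-fold, with a 95% interval from 1.16 to 5.61, an unadjusted p of 0.00576 and an adjusted p of 0.401 in edgeR. It did not pass the threshold of 0.05, nor did the 2-sided exact permutation test on log2(CPM + 0.1), at p = 0.0857, where 0.0286 is the smallest value that 4 against 4 mice allow.

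The size of the Lcn2 difference rested on single mice. MRL replicate 4 alone held 72.4% of the Lcn2 counts of its group, and the other 3 MRL mice averaged 1.74 ± 1.07 CPM (SD, n = 3). Without it the log2 fold change of Lcn2 fell to 1.88 ± 0.86, and without MRL-IRAK4-KD replicate 4 it became 4.99 ± 1.17, with adjusted p of 0.643 and 0.270 in edgeR. With each of the 14 libraries left out in turn it stayed positive and was never called.

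**Figure D2:**
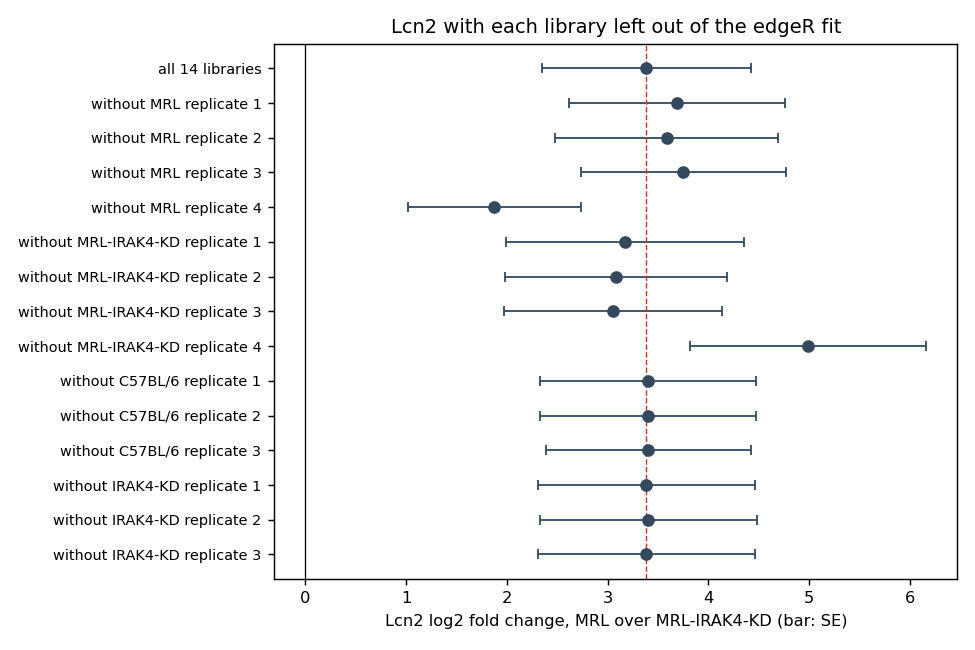
Log2 fold change of Lcn2 in MRL over MRL-IRAK4-KD mice (horizontal axis, bar: SE) in the edgeR fit of all 14 libraries, marked by the dashed line, and with each library left out. The estimate ranged from 1.88 without MRL replicate 4 to 4.99 without MRL-IRAK4-KD replicate 4, and lay between 3.38 and 3.40 without any control library.

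Some marker sums were high in single mice with much Lcn2, and their correlation with Lcn2 was not computed. The 18 homeostatic astrocyte genes had their highest sum, 10145 CPM, in MRL replicate 4, the mouse with the most Lcn2. The 8 endothelium markers, none of them at 0, summed to 163 to 304 CPM in the MRL mice. This was above the 110 to 141 of the MRL-IRAK4-KD, 106 to 125 of the C57BL/6 and 75.6 to 86.9 of the IRAK4-KD mice. The highest sum, 304 CPM, was in MRL replicate 4. MRL replicate 2, second in Lcn2, had a homeostatic astrocyte sum of 8846 CPM and an endothelium sum of 170 CPM. Both were below the 9525 and 184 CPM of MRL replicate 1, which had less Lcn2. The 8 neutrophil markers summed to 21.7 CPM in MRL replicate 4 and 33.9 in MRL replicate 2, the 2 mice with the most Lcn2, against 7.98 and 1.89 in the other MRL mice and 0.407 to 6.07 in the 10 mice of the other groups. Elane was at 0 in 5 libraries, and Retnlg and Mmp8 were also at 0 in 1 of them. In the MRL-IRAK4-KD mice, the library with the most Lcn2 was the one with the most choroid plexus and ependyma markers. The highest endothelium sum of that group, 141 CPM, was in replicate 2, which had 0.121 CPM of Lcn2. The part of these cells in the Lcn2 values was not tested.

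**Figure D3:**
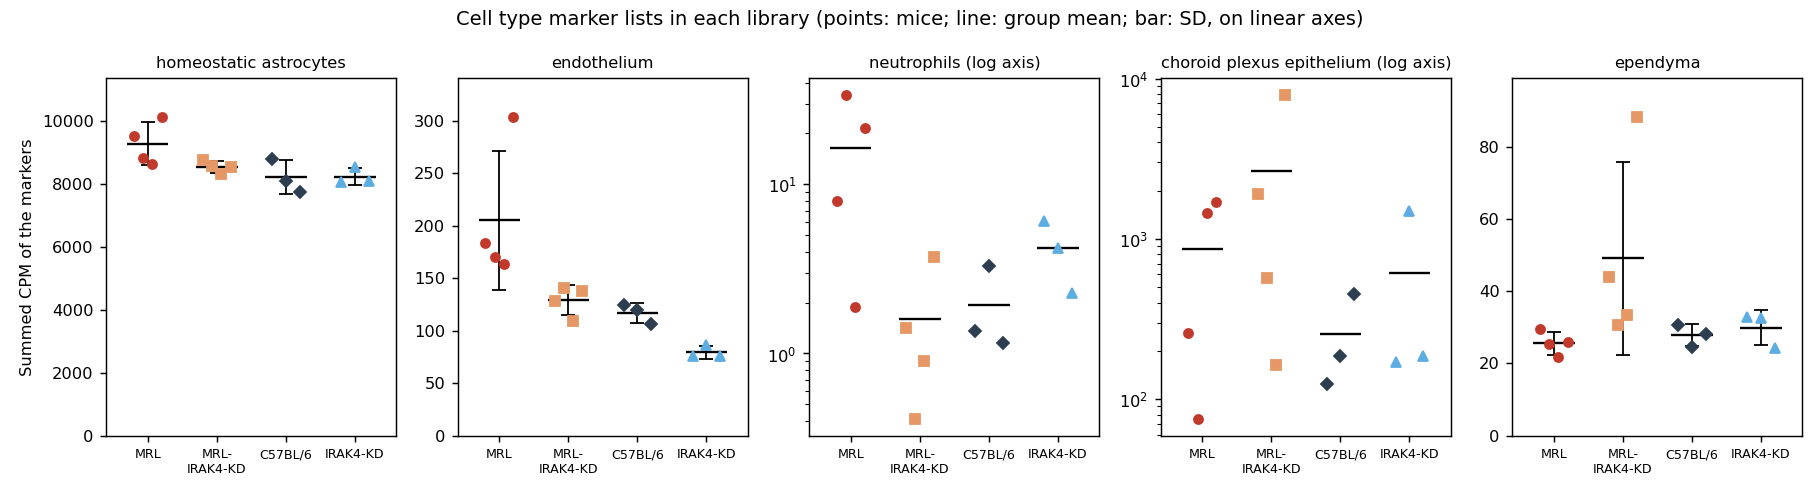
Summed CPM of 5 marker lists in each library, for 18 genes of homeostatic astrocytes, 8 of endothelium, 8 of neutrophils, 10 of choroid plexus epithelium and 8 of ependyma. Points are mice and lines group means, bars are SD on the linear axes, and the neutrophil and choroid plexus axes are logarithmic. MRL replicate 4 has the highest endothelium sum (304 CPM) and MRL-IRAK4-KD replicate 4 the highest choroid plexus (7928 CPM) and ependyma (88.3 CPM) sums.

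Serpina3n (chr12:104406729-104414329, plus strand) went the other way. The MRL mice had 53.7, 24.3, 27.4 and 32.7 CPM, the MRL-IRAK4-KD mice 55.1, 35.6, 43.0 and 65.7, the C57BL/6 mice 33.3, 28.6 and 39.5 and the IRAK4-KD mice 46.4, 39.5 and 39.4. The 3 lower MRL mice lay below all 4 MRL-IRAK4-KD mice, and MRL replicate 1 lay within their range. Serpina3n was lower in MRL than in MRL-IRAK4-KD mice by a log2 fold change of -0.53 ± 0.24 (unadjusted p of 0.0410, adjusted p of 0.439 in edgeR), a 1.44-fold difference that did not pass, and it became -0.37 ± 0.25 without MRL-IRAK4-KD replicate 4 and -0.83 ± 0.19 without MRL replicate 1 (adjusted p of 0.717 and 0.153). Relative to C57BL/6, Serpina3n in MRL-IRAK4-KD mice gave 0.56 ± 0.26 (adjusted p of 0.552 in edgeR) or 0.40 ± 0.27 without that library, while MRL mice gave 0.03 ± 0.25 (adjusted p of 1). Of 1965 windows of 100 bases along its exons, 4 recur in the neighbouring Serpina3e-ps and Serpina3g, where reads could be assigned to either gene.

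The remaining secreted members were Cp and Timp1. Cp (chr3:19957054-20009145, plus strand) oxidises iron for export from the cell and had 19.5, 14.4, 17.9 and 31.7 CPM in MRL mice, 11.6, 16.3, 14.4 and 14.5 in MRL-IRAK4-KD mice, 17.3, 20.1 and 11.1 in C57BL/6 mice and 8.50 to 12.3 in IRAK4-KD mice. Of the MRL mice, 3 lay above all MRL-IRAK4-KD mice and all 4 above all IRAK4-KD mice. The log2 fold change of Cp was 0.55 ± 0.24 over MRL-IRAK4-KD (unadjusted p of 0.0338, adjusted p of 0.437 in edgeR), and 0.30 ± 0.20 without MRL replicate 4, the mouse highest in Cp, Lcn2 and endothelium markers. Over IRAK4-KD the log2 fold change of Cp was 0.98 ± 0.26 (1.97-fold, unadjusted p of 0.00217, adjusted p of 0.154 in edgeR), and 0.84 ± 0.30 without the library labelled IRAK4-KD replicate 3.

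Timp1 (chrX:20870166-20874735, plus strand), an inhibitor of matrix metalloproteinases, was at 0.382 to 0.537 CPM in the MRL mice and at 0.349, 0.188, 0.418 and 1.67 CPM in the MRL-IRAK4-KD mice. The high value was that of the library with the choroid plexus and ependyma markers, and the other 3 lay within or below the MRL range. The log2 fold change of Timp1 between MRL and MRL-IRAK4-KD was -0.56 ± 0.54 with that library and 0.48 ± 0.35 without it. C57BL/6 mice had 0.337 to 0.604 and IRAK4-KD mice 0.270 to 0.701 CPM of Timp1. The gene overlaps the neuronal gene Syn1 on the opposite strand, which had 155581 to 341506 counts per library, and since the counting was not stated to use strand, the low Timp1 counts are uncertain. The same limit holds for Cp, whose opposite-strand neighbour Hps3 had 2170 to 10967 counts.

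Among the surface proteins, S1pr3 (chr13:51408639-51422797, plus strand), a receptor for sphingosine-1-phosphate, varied least between mice. It had 7.51, 8.21, 7.23 and 7.21 CPM in MRL, 7.33, 6.70, 7.71 and 6.66 in MRL-IRAK4-KD, 7.58, 7.54 and 7.87 in C57BL/6 and 6.36, 6.78 and 5.61 in IRAK4-KD mice. All 3 IRAK4-KD mice lay below all C57BL/6 and all MRL mice, whereas MRL and MRL-IRAK4-KD mice overlapped. The log2 fold change of S1pr3 in IRAK4-KD over C57BL/6 was -0.30 ± 0.12 (unadjusted p of 0.0273, adjusted p of 1 in edgeR), with an exact permutation p of 0.1, the smallest that 3 against 3 mice allow. Without the library labelled IRAK4-KD replicate 3, the lowest of the 14, it was -0.22 ± 0.13. Between MRL and MRL-IRAK4-KD the log2 fold change of S1pr3 was 0.09 ± 0.10 (95% interval -0.14 to 0.31, adjusted p of 0.746 in edgeR).

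Cd44 (chr2:102811141-102901665, minus strand), the hyaluronan receptor, held low and high values in each lpr group. The MRL mice had 4.45, 3.90, 7.46 and 7.72 CPM and the MRL-IRAK4-KD mice 3.35, 3.92, 7.69 and 3.86, with 4.52 to 9.01 in C57BL/6 and 4.47 to 8.53 in IRAK4-KD mice. The log2 fold change of Cd44 between MRL and MRL-IRAK4-KD was 0.32 ± 0.33 (95% interval -0.38 to 1.03, adjusted p of 0.691 in edgeR), and it ran from 0.18 ± 0.35 without MRL replicate 4 to 0.68 ± 0.31 without MRL-IRAK4-KD replicate 3. Steap4 (chr5:7960457-7982213, plus strand), a metalloreductase, ran from 0.179 to 0.642 CPM in MRL and from 0.174 to 0.355 CPM in MRL-IRAK4-KD mice, with a log2 fold change of 0.30 ± 0.43, or -0.10 ± 0.43 without MRL replicate 4. Aqp4 (chr18:15389496-15410982, minus strand) ran from 118 to 159 CPM in MRL and from 73.1 to 155 CPM in MRL-IRAK4-KD mice, the value of 73.1 again being replicate 4, and gave 0.16 ± 0.19, or -0.021 ± 0.12 without that library. Neither Steap4 nor Aqp4 passed, at adjusted p of 0.798 and 0.748 in edgeR.

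Over the 10 genes, edgeR called none in MRL against MRL-IRAK4-KD (adjusted p below 0.05), where it called 37 of the 38070 genes (0.0972%). At an unadjusted p below 0.05 it took in 3 of the 10 (Lcn2 and Cp higher, Serpina3n lower) against 11.4% of the genes tested, and 0 of the 10 separated the groups without overlap against 5.26%. The median log2 fold change of the 10 was 0.12, with 6 above and 4 below 0, beside 0.0023 over all genes tested. Lcn2 alone was at an unadjusted p below 0.05 without MRL-IRAK4-KD replicate 4, which makes 1 of 10 against 8.52% of all genes (0.137% called), and also without MRL replicate 4, which makes 1 of 10 against 6.98% (0.0689% called). Without MRL-IRAK4-KD replicate 1 it was again 1 of 10, against 4551 of 37850 genes. Leaving out MRL replicate 1 raised the count to 4 of 10, against 10.7%, with Gfap joining as lower, and so did leaving out MRL-IRAK4-KD replicate 2, against 15.5%. Leaving out MRL-IRAK4-KD replicate 3 also gave 4 of 10, against 13.0%, with Cd44 joining as higher.

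In edgeR the other comparisons also called 0 of the 10 genes. In MRL against C57BL/6, edgeR called 0 of 38070 genes (0.0%), with 2112 at an unadjusted p below 0.05, while DESeq2 called 197 and limma-voom 67, and none of the 10 in either. Of the 10 genes, Lcn2 was at an unadjusted p below 0.05 (log2 fold change 3.54 ± 1.18, 11.6-fold, unadjusted p of 0.00958, adjusted p of 0.746 in edgeR), against 5.55% of all genes, and Lcn2 alone separated the groups, against 9.63%. Without MRL replicate 4 the log2 fold change of Lcn2 was 2.01 ± 0.95, at an unadjusted p of 0.0554, and 0 of the 10 were then below 0.05. In MRL-IRAK4-KD against C57BL/6, 1 of 10 (Serpina3n) was at an unadjusted p below 0.05 against 8.62% of all genes, 0.0972% being called, and 0 of 10 separated the groups against 8.71%. With each library left out in turn this count ran from 0 to 2. Lcn2 there gave 0.155 ± 1.04, and -1.44 ± 1.07 without MRL-IRAK4-KD replicate 4.

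The groups labelled as controls without lupus were IRAK4-KD and C57BL/6, and the library labelled IRAK4-KD replicate 3 went against its label. In IRAK4-KD against C57BL/6, S1pr3 and Cp were lower at an unadjusted p below 0.05. This makes 2 of 10 against 3.8% of all genes (1.66% higher and 2.13% lower), with 0.147% called. Cp there had a log2 fold change of -0.61 ± 0.27 (unadjusted p of 0.0427, adjusted p of 1 in edgeR), and -0.47 ± 0.31 without the library labelled IRAK4-KD replicate 3. S1pr3 separated the groups, against 11.2% of all genes. Without that library, as also without C57BL/6 replicate 1 or 2, 0 of the 10 were at an unadjusted p below 0.05, against 2.68% of all genes, with 0.0875% called, in the fit without the library labelled IRAK4-KD replicate 3. In MRL-IRAK4-KD against IRAK4-KD, 0 of 10 were at an unadjusted p below 0.05 against 8.63% of all genes, with 0.0735% called, and 0 of 10 separated the groups against 8.74%. With each library left out, 0 to 1 of the 10 were at an unadjusted p below 0.05.

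MRL against IRAK4-KD took in Lcn2 (3.86 ± 1.20, adjusted p of 0.242 in edgeR), Cp and S1pr3 (0.27 ± 0.11, adjusted p of 0.484), all higher in MRL mice, which makes 3 of 10 against 9.09% of all genes, with 0.441% called. The same 3 genes separated the groups, against 12.4%. Without MRL replicate 4 the log2 fold change of Lcn2 there was 2.32 ± 0.96, and with each library left out 2 to 4 of the 10 were at an unadjusted p below 0.05. DESeq2 called Lcn2 and Cp in this comparison, 2 of 10 against 2.87% of all genes, and limma-voom called Cp, 1 of 10 against 4.26%. These comparisons share groups of mice and are not independent of each other. In MRL against IRAK4-KD, the library labelled IRAK4-KD replicate 3, which went against its label, was the lowest of all libraries for Cp and S1pr3. The interaction, which asks whether the mutation acts differently in lpr and control mice, gave 3.07 ± 1.49 on the log2 scale for Lcn2 (adjusted p of 0.914 in edgeR), with 1.57 ± 1.26 when MRL replicate 4 was left out and 4.67 ± 1.5 when MRL-IRAK4-KD replicate 4 was, and called none of the 10, against 0.00263% of all genes. At an unadjusted p below 0.05 it took in 0 of the 10, against 4.17%, and 0 to 2 with each library left out.

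**Figure D4:**
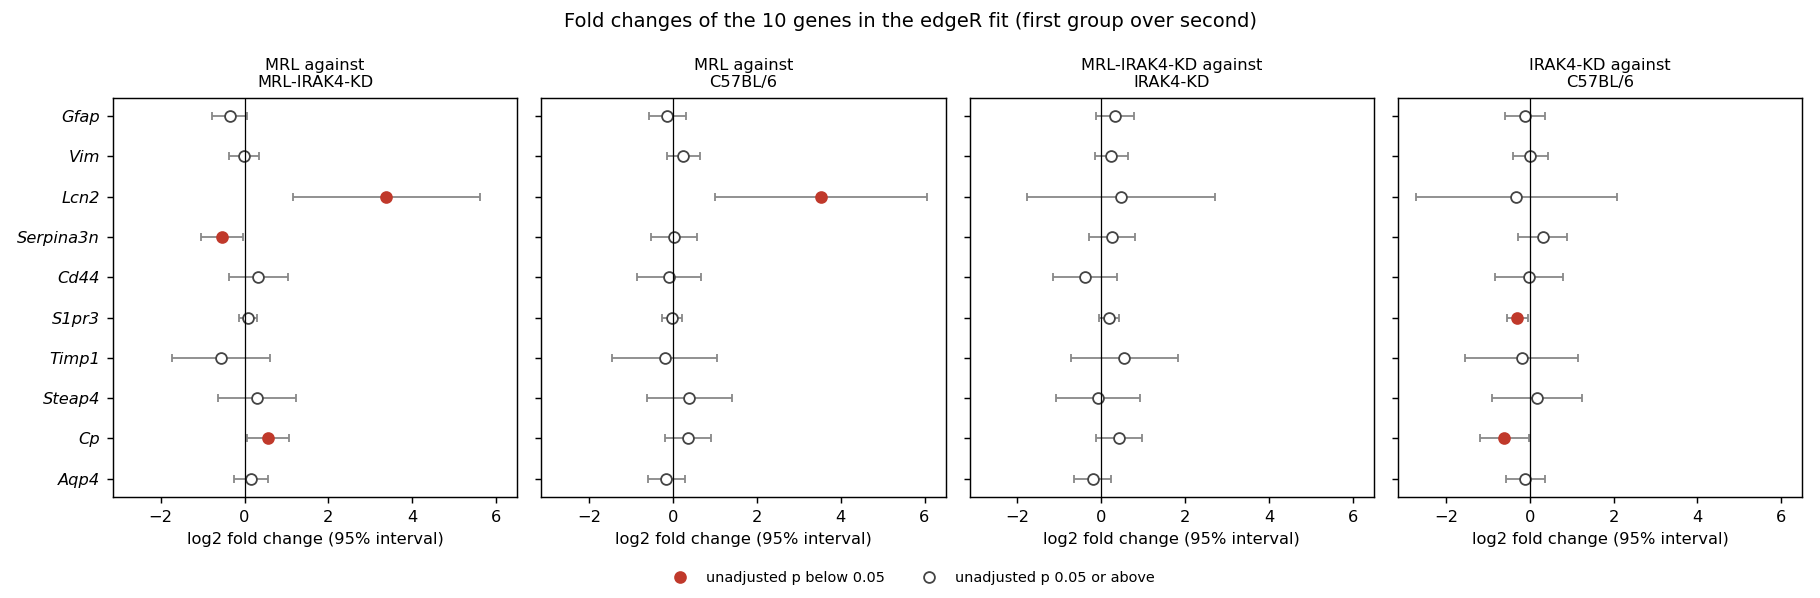
Log2 fold change of the 10 genes with its 95% interval in 4 comparisons of the edgeR fit, first group over second. Red filled points mark an unadjusted p below 0.05, and no point has an adjusted p below 0.05. Lcn2 lies at 3.38 and 3.54 in MRL against MRL-IRAK4-KD and MRL against C57BL/6, with the widest intervals, while Gfap, Vim and Aqp4 lie within 0.35 of 0 throughout.

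Across the 14 libraries, Gfap and Serpina3n varied together. Among the 45 pairs of the 10 genes, on log2(CPM + 0.1), this pair alone had both a Pearson and a Spearman permutation p below 0.05 after Benjamini-Hochberg adjustment, with r = 0.82 (permutation p = 0.00025, adjusted 0.0112) and rho = 0.80 (p = 0.00107, adjusted 0.0481). Left without the 2 libraries farthest from the median of Gfap, r was 0.66, without MRL-IRAK4-KD replicate 4 it was 0.74, and for deviations from the group means it was 0.87. MRL replicate 1, with 457 CPM of Gfap and 53.7 of Serpina3n, and MRL-IRAK4-KD replicate 4, with 568 and 65.7, were high for both genes. Lcn2 and Cp gave r = 0.70 (permutation p of 0.00634, adjusted 0.118) and did not pass.

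**Figure D5:**
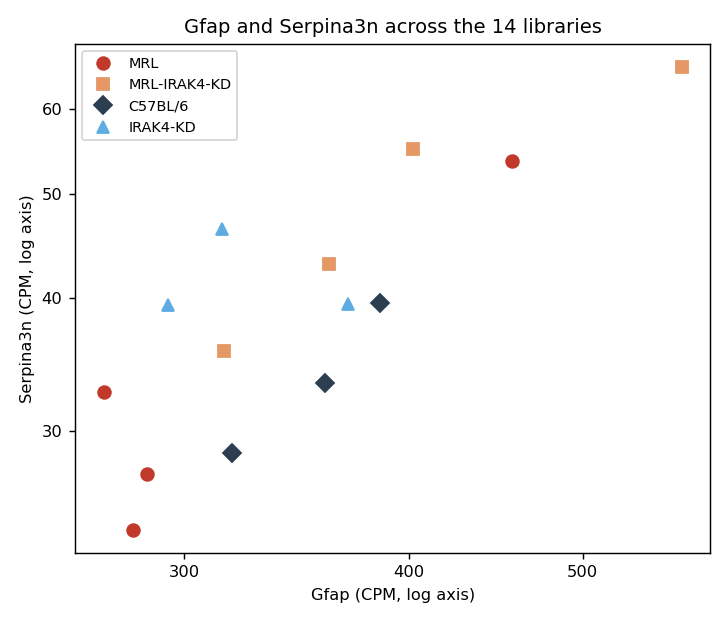
Gfap (horizontal) against Serpina3n (vertical), both in CPM on logarithmic axes, 1 point per library with the shape giving the group. The highest point is MRL-IRAK4-KD replicate 4 (568 and 65.7 CPM), and the groups lie among each other along the trend (r = 0.82, n = 14).

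Of 16104 genes with a mean of at least 1 CPM, those whose levels over the 14 libraries were most like Gfap were Ap3d1 (r = 0.94), Gpnmb (0.92), Wscd1 (0.91), Actr1a (0.91) and Bop1 (0.90). Those most like Serpina3n were B4galt4 (0.95), Dgat2 (0.94), Ehd1 (0.94), Pwwp2b (0.93) and Pkp2 (0.93). For Lcn2 the list was Parp10 (0.89), Ube2l6 (0.89), Prkd2 (0.88), Ms4a6d (0.88) and Gpr4 (0.88). The 3 lists have no gene in common. These are descriptions over libraries that differ in depth and in their choroid plexus and striatum markers. None of the 15 genes belongs to the lists of astrocyte genes used here.

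The promoters of the members were searched for 3 motifs of the pathways named above, over 250 bases before to 50 after the start in RefSeq (GRCm38.p6, the same assembly as mm10). A promoter was found for 9 of the 10 genes, without Aqp4. The STAT motif TTCNNNGAA, read on both strands, occurred in Gfap and Steap4, and in 8.30% of 32851 promoters. The AP-1 motif TGANTCA occurred in Cp and in 7.81% of promoters, and the NF-kB consensus in Vim and Steap4 and in 8.46%. One match per gene and motif is shown, to let the members be compared, with the match in capitals and 10 bases on each side, written along the strand of the gene.
Gfap, STAT, chr11:102897184-102897212, minus strand: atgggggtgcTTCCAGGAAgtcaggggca
Steap4, STAT, chr5:7960346-7960374, plus strand: ggttgaactcTTCCCGGAAactttgcttc
Steap4, NF-kB, chr5:7960236-7960265, plus strand: caaaggttccGGAAAACCCCttttataccc
Cp, AP-1, chr3:19956867-19956893, plus strand: atgacatattTGATTCAtttttccttg
Vim, NF-kB, chr2:13574078-13574107, plus strand: gtgatcaccaGGAAAGCCCCtgaaaggcct
The Gfap match begins 2 bases before the start site and runs across it, and the Steap4 STAT match begins 116 bases before the start. The windows of Lcn2, Serpina3n, Cd44, S1pr3 and Timp1 held none of the 3 motifs, which says only that these letters are not in these windows.

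Genes known from other states of reactive astrocytes were compared by counts, on lists chosen with earlier results of these data known. None of the following lists had a gene called in MRL against MRL-IRAK4-KD by edgeR, and their named genes are given at an unadjusted p below 0.05, against 5.14% of all genes higher and 6.23% lower. Of 10 further genes shared by reactive astrocytes, 2 were higher and none lower in MRL mice (median log2 fold change 0.13). They were Cxcl10, a chemokine of the interferon response, at 1.16, 0.593, 0.948 and 1.95 CPM in MRL against 0.281, 0.284, 0.581 and 0.203 in MRL-IRAK4-KD mice (log2 fold change 1.78 ± 0.45), and Osmr, the oncostatin M receptor, at 5.47 to 11.1 against 2.85 to 6.37 CPM (0.72 ± 0.23). Cxcl10 separated the groups and Osmr overlapped.

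Of 11 genes reported after endotoxin (the A1 set), 6 were higher and 1 lower in MRL than in MRL-IRAK4-KD mice, and the set's median was 0.61 on the log2 scale. The higher ones were the class I histocompatibility genes H2-D1 and H2-T23, the interferon-inducible GTPases Gbp2 and Iigp1, the proteoglycan Srgn and the glycosyltransferase Ggta1, and the lower one was the adhesion protein Amigo2 (-0.77 ± 0.20). H2-D1 had 45.4, 43.6, 37.3 and 85.0 CPM in MRL mice against a mean of 29.4 ± 0.60 (SD, n = 4) in MRL-IRAK4-KD mice, without overlap, a log2 fold change of 0.85 ± 0.20 (adjusted p of 0.281 in edgeR). Gbp2 had 5.94, 4.99, 4.70 and 59.3 CPM against 3.62 to 3.84, and Iigp1 2.59 to 37.0 CPM against 2.27 to 3.22, and the highest value of both was in the mouse with the most Lcn2. Without that mouse the log2 fold change of H2-D1 went from 0.85 to 0.54, that of H2-T23 from 0.79 to 0.44, that of Gbp2 from 2.34 to 0.51 and that of Iigp1 from 2.12 to 0.22, the set's median became 0.34, and 4 of 11 were higher and 1 lower. H2-D1, in MRL against IRAK4-KD, was the gene of these lists that was called (1.27 ± 0.22, adjusted p of 0.0258 in edgeR), and it was not called without the library labelled IRAK4-KD replicate 3 (adjusted p of 0.195), without IRAK4-KD replicate 1 (0.0773) or 2 (0.121), or with these 2 groups fitted alone (0.124). C3, the complement gene of this set, had 1.32 to 3.73 CPM in MRL and 1.81 to 3.43 CPM in MRL-IRAK4-KD mice. In the same groups the endothelium markers summed to 163 to 304 against 110 to 141 CPM. The microglia markers summed to 389 to 500 against 369 to 397 CPM, with overlap. The part of these cells in the endotoxin set was not tested.

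Of 12 genes reported after ischaemia (the A2 set), 2 were higher, namely the endotoxin co-receptor Cd14 (0.71 ± 0.24) and the cytokine Clcf1 (0.49 ± 0.22, or 0.30 without MRL-IRAK4-KD replicate 4), with a median of 0.07. Of the 18 homeostatic astrocyte genes, none were higher and 2 lower, namely the astrocyte transcription factor Sox9 (-0.47 ± 0.22) and the neurotensin receptor Ntsr2 (-0.41 ± 0.18), with a median of 0.07. Sox9 had 96.3 CPM in MRL-IRAK4-KD replicate 4 and 43.0 to 49.8 CPM in the other 3 mice of that group, against 39.6 to 48.1 in MRL mice, and Ntsr2 had 251 CPM in that library and 126 to 140 in those 3 mice. Leaving that library out gave -0.11 for both Sox9 and Ntsr2.

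Of 20 signals and receptors upstream of reactive astrocytes, 4 were higher and none lower in MRL than in MRL-IRAK4-KD mice, with a median of 0.20. Socs3, the feedback inhibitor that STAT3 switches on, had 1.52, 3.49, 2.81 and 4.41 CPM against 1.11, 1.61, 1.08 and 0.464, and 3 of 4 MRL mice lay above all MRL-IRAK4-KD mice. For Socs3 the log2 fold change was 1.52 ± 0.37, at an adjusted p of 0.320 in edgeR. Stat3 itself had 42.5 to 48.9 against 31.9 to 42.2 CPM (0.24 ± 0.10), and Il1b, the cytokine whose receptor uses IRAK4, had 0.277, 0.438, 0.171 and 0.249 against 0.118, 0.171, 0.126 and 0.0644 CPM (1.24 ± 0.52). The fourth was Osmr, which stands on both lists. In DESeq2, Socs3 (adjusted p of 0.00785), Cxcl10 (0.00930), H2-D1 (0.0142) and Amigo2 (0.0495) were called in this comparison. DESeq2 called 395 of all 38070 genes there.

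In MRL against C57BL/6 the endotoxin set again had 6 of 11 genes higher and none lower at an unadjusted p below 0.05 (median 0.52), against 3.16% of all genes higher and 2.39% lower. Without MRL replicate 4, 5 of 11 were higher and the median was 0.35, with Gbp2 going from 2.52 to 0.69, Iigp1 from 2.45 to 0.55, Psmb8 from 1.01 to 0.48, H2-T23 from 1.03 to 0.67 and Srgn from 0.52 to 0.35. The upstream list had 3 of 20 higher, namely Rela, Socs3 and C1qa, and none lower, and 1 of 20 without MRL replicate 4. The homeostatic list had 3 of 18 higher, namely Aldh1l1, Glul and Acsbg1, and the ischaemia set 1 of 12, Cd14. C1qa and Cd14 are made by microglia, and C1qa is among the 8 microglia markers used here. These markers, none at 0, summed to 389 to 500 CPM in MRL, 369 to 397 in MRL-IRAK4-KD, 328 to 350 in C57BL/6 and 321 to 353 in IRAK4-KD mice. The part of microglia in these values was not tested. Of the 10 further reactive genes, none were higher and 2 lower, the fatty acid binding protein Fabp7 (-0.65 ± 0.17) and the matrix protein Tnc (-0.59 ± 0.27, or -0.32 ± 0.29 without C57BL/6 replicate 2). Fabp7 had 15.3 to 24.2 CPM in MRL and 26.2 to 35.3 CPM in C57BL/6 mice, without overlap. In MRL-IRAK4-KD against C57BL/6, Fabp7 (0.69-fold) and Tnc (0.55-fold) were lower too, with Gap43 (0.77-fold). This makes 3 of these 10 genes at an unadjusted p below 0.05, against 8.62% of all genes in either direction. Of the 20 upstream genes, 2 were higher there at that threshold, C1qa (1.46-fold) and Tgfb1 (1.43-fold). In IRAK4-KD against C57BL/6 the endotoxin, ischaemia, homeostatic and upstream lists had no gene at an unadjusted p below 0.05, and of the further reactive genes Fabp7 and Nes were lower.

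Within Gfap, 1 of its 3 annotated transcripts took a median of 95.7% of the counts. The second coding transcript, of 2600 bases, took 4.39 ± 0.126% (SD) of the Gfap counts in MRL, 3.95 ± 0.529% in MRL-IRAK4-KD, 4.18 ± 0.102% in C57BL/6 and 4.58 ± 0.414% in IRAK4-KD mice, and the smallest exact permutation p between any pair of groups was 0.0857. For Cd44, a coding transcript of 5045 bases carried the counts in place of one of 5614 bases in 4 libraries, namely MRL replicates 2 and 3, MRL-IRAK4-KD replicate 2 and C57BL/6 replicate 2, so that the assignment varied within groups.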

How the data were processed

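RNA-seq libraries of 14 hippocampi were analysed by the groups of the deposited labels. Per the labels and methods, the authors aligned reads to mm10 and derived counts per gene and transcript. The submitters' processing notes list HISAT2 2.1.0, SAMtools 1.9, StringTie 2.1.0, R 4.0.5 and DESeq2 1.30.1. The annotation is not given in the sources used here, and the identifiers match GENCODE M21. The deposited values are whole-number counts without normalization. Totals came to 1.40 to 2.08 counts per sequenced read, so a count is not 1 read, and how strand was used is not given in the sources used here. The 1.40 was that of MRL-IRAK4-KD replicate 4, and the next lowest was 1.80 in C57BL/6 replicate 1. MRL-IRAK4-KD replicate 4 also had the highest share of counts outside Ensembl genes, 0.188%. The labels and methods name different library kits. Features that are not Ensembl genes (0.0254 to 0.188% of counts) were left out, and 0 columns were unmapped. Replicates are separate mice.

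The fit took genes whose counts summed to 10 or more and used edgeR 4.0.16 (R 4.3.3, robust quasi-likelihood, TMM, 1 model of 4 groups), with Benjamini-Hochberg adjustment over 38070 genes and a threshold of 0.05. The CPM in the text are TMM-scaled, and levels between genes are counts over transcript length. Single genes were also compared by exact permutation tests on log2(CPM + 0.1), and correlations by 100000 permutations. The scripts were tested on simulated data. Members and lists were chosen with earlier results of these data known. Named genes are the members, Fas and Irak4, up to 6 genes per list and comparison at an unadjusted p below 0.05, and the 5 genes most like Gfap, Serpina3n and Lcn2, with C3 added after its values were seen. Alternatives were RLE and library-size scaling, DESeq2 1.42.0, limma-voom (limma 3.58.1), 2 other filters, pairs of groups alone, a replicate block, the summed transcript table, each library left out, and, added after seeing the data, both doubtful libraries left out.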

Additional observations from a re-analysis of the deposited data

Results flagged for a closer look

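In each lpr group of 4 mice, Dixon's test asked of each of the 10 genes whether 1 mouse stood apart from the other 3. It was run on CPM without logarithms, and 5 of 20 groups were picked out, each by a high value. The nominal rate of about 1 in 20 assumes normally distributed values. CPM was not transformed and the 20 groups share the same mice, so the count cannot be set against chance. The groups of 3 control mice were not tested. Gfap was 457 CPM in MRL replicate 1, against 271 to 286 in the other MRL mice. Lcn2 was 15.1 CPM in MRL replicate 4, against 0.906 to 2.94 in the others. Lcn2 was 1.48 CPM in MRL-IRAK4-KD replicate 4, against 0.0919 to 0.264, and Timp1 in the same library was 1.67 CPM, against 0.188 to 0.418. Cd44 was 7.69 CPM in MRL-IRAK4-KD replicate 3, against 3.35 to 3.92. Of the 5 values, 2 belong to the library with 7928 CPM of choroid plexus markers, whose part in them was not tested.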

How the results depend on the processing

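Of 113 fold changes of members and listed genes, 104 kept their sign under every alternative. The largest size among the 9 that did not, all of members, was 0.56 (log2). Many of the 113 were taken at an unadjusted p below 0.05 in these data, which favours a stable sign. Member fold changes outside the 113 also turned, such as Timp1 in the interaction (-0.75, with -1.23 to 0.41 over the alternatives). For each of these changes of call or sign, the cause was not tested.

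In the order MRL against MRL-IRAK4-KD, MRL against C57BL/6, IRAK4-KD against C57BL/6, MRL-IRAK4-KD against IRAK4-KD, MRL against IRAK4-KD, MRL-IRAK4-KD against C57BL/6 and the interaction, DESeq2 called 395, 197, 166, 283, 1091, 174 and 59 genes and limma-voom 232, 67, 145, 266, 1623, 81 and 24, where edgeR called 37, 0, 56, 28, 168, 37 and 1. Leaving out each library gave 25 to 52, 0 to 21, 33 to 106, 11 to 65, 62 to 1088, 23 to 43 and 1 to 15. Fitting 2 groups alone gave 18 genes in MRL against MRL-IRAK4-KD, 95 in IRAK4-KD against C57BL/6, 6 in MRL-IRAK4-KD against IRAK4-KD, 259 in MRL against IRAK4-KD and 13 in MRL-IRAK4-KD against C57BL/6. The interaction called 4 genes without a filter. Without both doubtful libraries, an alternative chosen after seeing the data, 20 genes were called in MRL against C57BL/6, 402 in MRL against IRAK4-KD and 11 in the interaction.

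With a library left out, 0 of the 10 genes were called in any comparison. In MRL against IRAK4-KD, DESeq2 called 2 of them (Lcn2, adjusted p of 0.0158, and Cp, 0.0134) and limma-voom 1 (Cp, 0.0489), beside 2.87% and 4.26% of all genes. The labels give no batch and do not say that replicate numbers are shared between groups. The 19 pairs of libraries with the same number correlated from -0.251 to 0.375 (median -0.000245), and 4 were over 0.1. The 54 pairs with another number correlated from -0.422 to 0.419 (median 0.0131). With so few mice per group, these correlations cannot settle whether the numbers pair the mice. With the replicate block, Lcn2 was called, 1 of the 10, in MRL against MRL-IRAK4-KD (log2 fold change 3.43, adjusted p of 0.00328 in edgeR, against 0.003 to 0.643 over all alternatives), beside 0.0893% of all genes, and 1 in MRL against IRAK4-KD (2.27, adjusted p of 0.0434), beside 0.355%, and the interaction called 2 genes.

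The sign turned in limma-voom, with the replicate block or without both doubtful libraries for Lcn2 in MRL-IRAK4-KD against IRAK4-KD (-1.20, -1.16 and -1.39) and against C57BL/6 (-1.21, -1.28 and -1.44). In MRL against MRL-IRAK4-KD it turned in limma-voom and without both libraries for Vim (0.044 and 0.13), Timp1 (0.45 and 0.47) and Aqp4 (-0.044 and -0.030). Serpina3n in MRL against C57BL/6 gave -0.037 by library size, -0.13 in limma-voom and -0.093 with the replicate block. With each library left out, some ranges among the 113 fold changes spanned 0. In MRL against MRL-IRAK4-KD these were -0.021 to 0.30 for Aqp4, -0.10 to 0.53 for Steap4, -0.84 to 0.48 for Timp1 and -0.092 to 0.14 for Vim. Others were -0.21 to 0.093 for Gfap in MRL against IRAK4-KD and -0.25 to 0.17 for Serpina3n in MRL against C57BL/6. For Lcn2 they were -0.76 to 0.055 in IRAK4-KD against C57BL/6, -1.44 to 0.50 in MRL-IRAK4-KD against C57BL/6 and -1.12 to 0.83 in MRL-IRAK4-KD against IRAK4-KD. Depth limits the genes with few counts, namely Lcn2, Steap4 and Timp1, with as few as 40, 54 and 67 counts in a library.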
